A study of Mus musculus with 4 samples.

Results

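Complement and coagulation genes of the mouse liver were followed across 4 single-cell RNA libraries. The set holds 48 genes, taken by symbol from the 31053 genes of the deposited matrices, and all 48 had at least 1 UMI (unique molecular identifier, the tag that marks 1 captured RNA molecule) among the kept cells of every library. The genes span the C1q and lectin initiators, the central and terminal complement components, their regulators and receptors, the clotting factors, fibrinogen, the anticoagulants and the plasminogen system. All libraries came from C57BL/6 mice, given as 15 months in the sample titles and 17 months in the age field. The control library came from a mouse liver on control diet and the low-AFP library from a liver on the CD-HFD diet, AFP being alpha-fetoprotein, a fetal liver protein. The high-AFP title names the control diet while the series as a whole is described as CD-HFD feeding, so that group is called here by its AFP label alone. The HCC library was a suspension from the region of a hepatocellular carcinoma, and the labels give no diet for it. One protocol text covers all 4 libraries: collagenase perfusion, hepatocyte purification on Percoll, live-cell sorting of the other cells, and mixing of both fractions in equal parts before loading. The labels do not say how many animals a library holds.

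Each group is 1 library, so no difference below has a replicate check, and a difference between libraries cannot be told apart from one between animals or preparations. Intervals are 95% exact Poisson or binomial intervals and cover counting error only. The libraries held 8929 to 11539 barcodes with 65326793 to 97393862 UMIs in all, and 5129 to 7902 cells were kept after filtering and doublet removal. Barcodes over the mitochondrial limit were 42.7% of the control, 42.0% of the low-AFP, 26.5% of the high-AFP and 8.19% of the HCC library. Of 28102 distinct barcodes passing the filter, 97 occurred in more than 1 library. Levels are given as CPM, the usual scaling of counts to a fixed library total, here of nuclear-encoded UMIs, summed over the cells of a class in a library. The reads come from the 3' ends of transcripts, so a molecule counts once whatever its length, and where 4 levels are listed they stand in the order control, low-AFP, high-AFP, HCC.

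Complement is a cascade of plasma proteases and binding proteins that tags microbes and dying cells and ends in a membrane pore, and coagulation is a parallel protease cascade that ends in a fibrin clot. Hepatocytes secrete most of the circulating components of both, which makes fibrinogen, prothrombin and C3 standard measures of liver output. Tissue macrophages are known as the main makers of C1q, and endothelial cells make factor VIII together with surface and secreted anticoagulants such as thrombomodulin, tissue factor pathway inhibitor and protein S.

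In the control library, among classes of at least 50 cells, 30 of the 48 genes had their highest level in hepatocyte-like cells, 7 in macrophage-like, 4 in endothelial-like, 4 in mesenchymal-like, 2 in cholangiocyte-like and 1 in monocyte-like cells. The 7 macrophage genes were C1qa, C1qb and C1qc, which encode the chains of C1q, properdin (Cfp), C6, and the anaphylatoxin receptors C3ar1 and C5ar1. C5ar1 is among them because the 45 neutrophil-like cells of control, where it was at 660.4 CPM, fell under the limit of 50 cells. The 4 endothelial genes were F8, Pros1, Thbd and Tfpi. Masp1, C2, Serping1 and Plat were highest in the mesenchymal-like cells, F3 and Proc in cholangiocyte-like cells, and F13a1, the catalytic subunit of the fibrin cross-linking enzyme, in monocyte-like cells. Mesenchymal-like, cholangiocyte-like and neutrophil-like cells were under that limit in 1 or more libraries, so the leading class of a gene was not compared across libraries where they led. For the 30 hepatocyte genes the control level was 1.87 times (Cfb) to 17.7 times (F5) that of the next class.

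**Figure D1:**
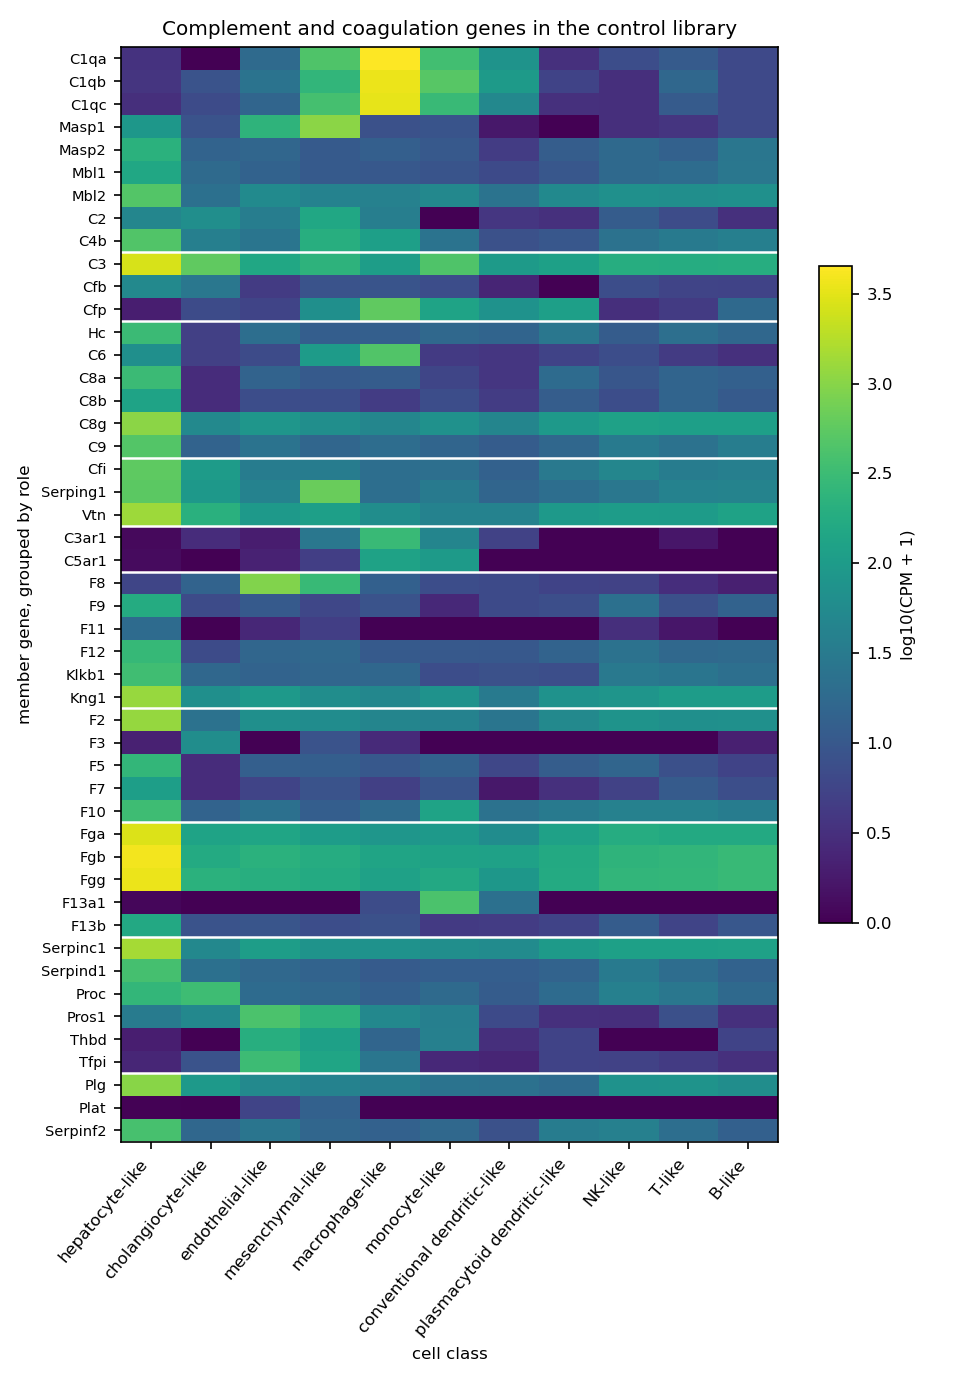
Level of each of the 48 genes in the 11 cell classes of the control library with at least 50 cells, on the log10(CPM + 1) scale shown by the colour bar, with genes grouped by role between white lines. The hepatocyte-like column is brightest for 30 genes, the macrophage-like column for the 3 C1q genes, Cfp, C6 and both receptors, and the endothelial-like column for F8, Pros1, Thbd and Tfpi.

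Free RNA limits what the non-hepatocyte classes can show for hepatocyte genes. T-like cells, which should lack them, held the 30 hepatocyte genes at a median of 6.71%, 6.59%, 6.73% and 2.95% of the hepatocyte-like level in the 4 libraries, and albumin at 7.18%, 6.20%, 7.07% and 3.88%. In macrophage-like cells 25, 28, 27 and 21 of those 30 genes were at or below their T-like level in the same library. In endothelial-like cells the counts were 23, 24, 25 and 23 of 30. B-like cells, which should lack these genes too, held them at medians of 6.9998%, 8.23%, 8.73% and 4.23%, and 1, 4, 5 and 4 of the 30 were at 2 times the T-like level or more. A level is called over background below where it reached at least 2 times the T-like level of the library in which it was higher.

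Fibrinogen is a hexamer of paired alpha, beta and gamma chains, encoded by the neighbouring genes Fga, Fgb and Fgg on chromosome 3. Their RefSeq promoters are shown because the 3 genes are read in the same cells yet did not keep their proportions across libraries. Each line gives the 250 bases before the start (GRCm38.p6), for Fga at chr3:83025903-83026152 on the plus strand, for Fgb at chr3:83049864-83050113 on the minus strand and for Fgg at chr3:83007474-83007723 on the plus strand. Capitals mark matches on either strand to TTGCNNAA (C/EBP), GTTAAT (part of an HNF1 site), CTGGGAA (an acute phase STAT3-type element) and GAGGAA (a PU.1-type element).
Fga: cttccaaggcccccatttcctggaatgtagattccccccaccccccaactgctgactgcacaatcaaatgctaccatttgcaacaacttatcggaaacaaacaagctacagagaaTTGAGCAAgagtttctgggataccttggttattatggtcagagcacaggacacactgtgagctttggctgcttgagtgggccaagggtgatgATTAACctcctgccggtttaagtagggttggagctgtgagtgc
Fgb: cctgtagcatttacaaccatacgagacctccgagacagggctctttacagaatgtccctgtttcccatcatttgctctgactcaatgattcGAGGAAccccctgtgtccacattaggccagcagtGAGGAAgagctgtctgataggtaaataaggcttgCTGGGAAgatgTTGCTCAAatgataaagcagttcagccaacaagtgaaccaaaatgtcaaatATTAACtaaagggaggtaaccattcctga
Fgg: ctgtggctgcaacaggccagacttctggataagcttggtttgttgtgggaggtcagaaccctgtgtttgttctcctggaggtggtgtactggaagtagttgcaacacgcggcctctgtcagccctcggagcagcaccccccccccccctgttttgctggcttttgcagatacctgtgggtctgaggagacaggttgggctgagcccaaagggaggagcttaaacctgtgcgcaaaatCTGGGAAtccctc
Fga and Fgb each held a TTGCNNAA and a GTTAAT match, and Fgg had neither in this window. CTGGGAA was present in Fgb and Fgg. Among the 36 members with a promoter in the RefSeq table, 7 held TTGCNNAA, 8 GTTAAT, 5 CTGGGAA and 6 GAGGAA, where 9.56%, 6.43%, 9.1% and 23.3% of all 32851 promoters hold them. A match is only a string of letters, and none of the libraries measured binding.

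In hepatocyte-like cells Fga stood at 2895, 2445, 1703 and 536 CPM, Fgb at 3827, 3453, 2673 and 1385 CPM and Fgg at 3503, 2924, 2194 and 944 CPM. In the sums over the class each chain was highest in control and lowest in HCC, with the 4 counting intervals apart. Inside single clusters, given below, Fgb was not always higher in control than in low-AFP. The control level was 5.402-fold (95% interval 5.11 to 5.71) the HCC level for Fga, 3.71-fold (3.56 to 3.87) for Fgg and 2.76-fold (2.67 to 2.86) for Fgb. The 3 chains differed by unequal amounts: UMIs of Fga over those of Fgb were 0.756, 0.708, 0.637 and 0.387 in the 4 libraries, and those of Fgg over Fgb were 0.915, 0.847, 0.821 and 0.682. The interval of the Fga to Fgb ratio was 0.749 to 0.763 in control and 0.362 to 0.413 in HCC. F13b, the carrier subunit of factor XIII, was at 159, 113, 107 and 47.2 CPM.

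**Figure D2:**
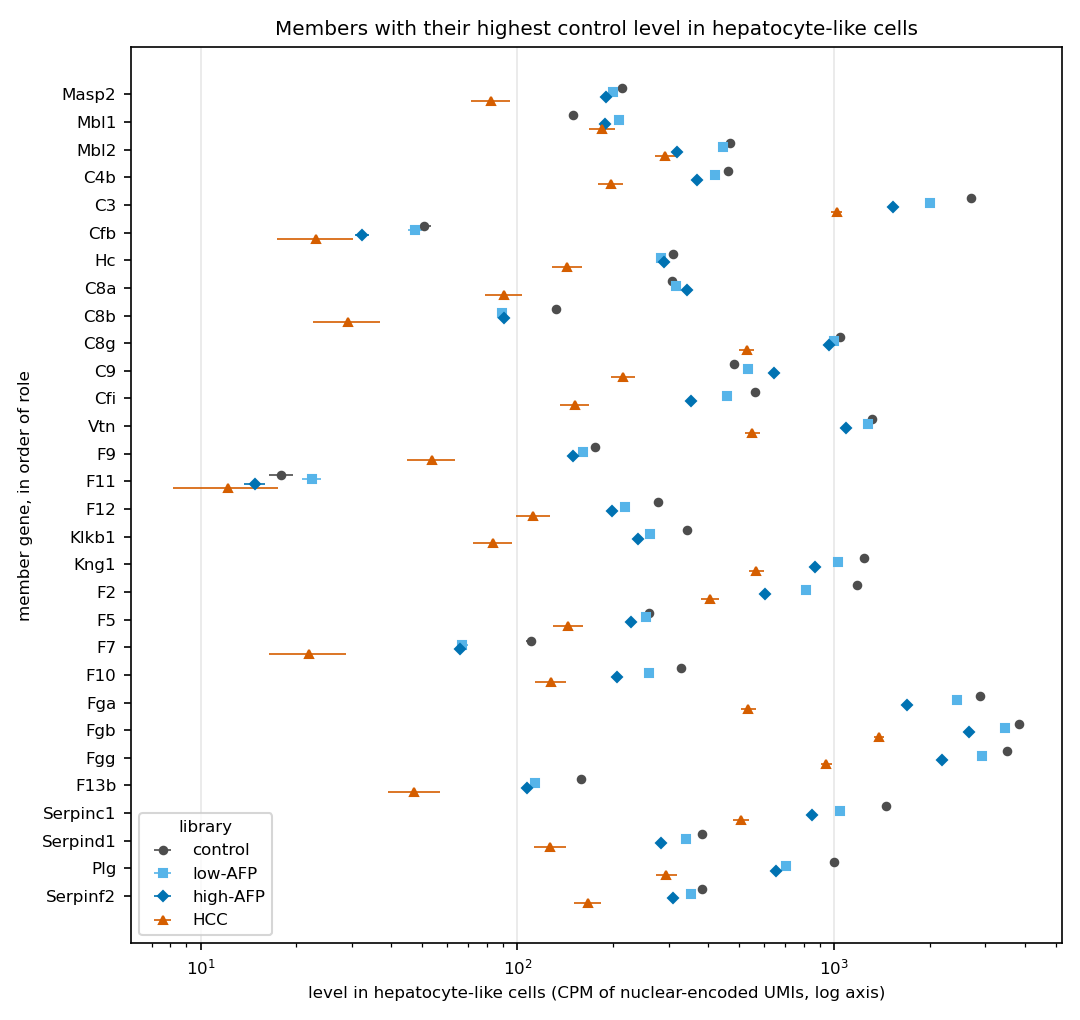
Levels in hepatocyte-like cells (CPM, log axis) of the 30 genes whose highest control level was in that class, by library, with bars for 95% exact Poisson intervals that are hidden where narrower than the symbol. The HCC library is lowest for all but Mbl1, and the 3 fibrinogen chains run from 3827 CPM for Fgb in control down to 536 CPM for Fga in HCC.

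The central and initiating complement genes of hepatocyte-like cells were lower in HCC to different degrees. C3, the component on which all activation routes converge, was at 2707, 2002, 1535 and 1019 CPM, a control level 2.66-fold (2.55 to 2.77) that of HCC. C4b, the substrate of the C1 and lectin proteases, was at 461, 420.3, 368 and 197 CPM, although its near-identical neighbour C4a leaves its counts uncertain. Masp2, the lectin pathway protease that cleaves it, was at 213, 199.7, 191 and 82.2 CPM, and Masp1, the protease that activates Masp2, at 85.8, 67.7, 60.2 and 16.9 CPM. Of the mannose-binding lectins, Mbl2 ran in the same order of libraries as these genes and Mbl1 did not. Mbl2 was at 469.6, 444, 318 and 293 CPM, and Mbl1 was lowest in control at 150.1, 209, 189.6 and 185 CPM. The ratio of Mbl1 to Mbl2 UMIs was 0.3195, 0.4697, 0.596 and 0.632, with intervals of 0.309 to 0.331 in control and 0.559 to 0.713 in HCC. C2 and Cfb, the protease subunits of the classical and alternative C3 convertases, were at 46.8, 33.1, 35.8 and 23.6 CPM and 50.7, 47.5, 32.3 and 23.2 CPM. Their exons overlap a same-strand gene model, Gm20547, over 59.2% (C2) and 81.6% (Cfb) of exon bases, so reads may have gone uncounted. Gm20547 itself had 0 UMIs in these cells.

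The terminal components, which build the membrane pore, did not move as 1 group. Hc, the mouse C5, was at 309, 283, 290.4 and 144 CPM and C8g at 1045, 999.7, 963 and 529.97 CPM. C8a was close in the first 3 libraries and lower in HCC, at 307, 316, 343 and 90.6 CPM, and C8b at 133, 89.4, 90.99 and 29.1 CPM was lower in each of the others than in control. C9, which polymerises into the pore wall, was highest in high-AFP at 481, 533, 644 and 216 CPM. C6 in hepatocyte-like cells was likewise highest in high-AFP, at 64.3, 94.2, 120.4 and 57.3 CPM. C8a over C8g UMIs were 0.294, 0.316, 0.356 and 0.171, a ratio that was highest in high-AFP and lowest in HCC. The regulators were all lower in HCC: Cfi, which cleaves C3b and C4b, was at 562, 457, 353 and 151 CPM, the C1 inhibitor Serping1 at 548, 471, 461 and 184 CPM, and vitronectin (Vtn), which blocks pore insertion, at 1319.9, 1278, 1092 and 551 CPM.

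The clotting factors were lowest in HCC, and all but F11 were highest in control. Prothrombin (F2) was at 1177, 814, 607 and 405 CPM, its control level 2.905-fold (2.72 to 3.101) that of HCC. F7, which starts the extrinsic pathway with tissue factor, was at 110.4, 66.9, 65.8 and 21.9 CPM, a control level 5.03-fold (3.83 to 6.76) that of HCC. F10, the protease of the common pathway, was at 329, 261, 206 and 127 CPM and its cofactor F5 at 259.9, 254, 228 and 145 CPM. F9, the haemophilia B factor, was at 175, 161, 149 and 53.5 CPM and F12, the contact factor, at 277, 218, 199 and 112 CPM. Prekallikrein (Klkb1), which activates factor XII, was at 343, 262, 241 and 83.5 CPM, with 43.2% of its exon bases shared with Gm45753. Kininogen (Kng1) was at 1239, 1026, 870.3 and 568 CPM, uncertain because of its close copy Kng2. F11 was low everywhere, at 17.9, 22.4, 14.8 and 12.2 CPM, and its HCC interval of 8.19 to 17.6 CPM overlapped the control interval of 16.4 to 19.5 CPM.

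Inhibitors of clotting and the plasmin system were also lowest in HCC. Antithrombin (Serpinc1) was at 1458, 1041, 852 and 508 CPM and heparin cofactor II (Serpind1) at 381, 339.8, 283 and 127 CPM. Protein C (Proc), which switches off factors V and VIII, differed less, at 258, 246, 219.7 and 189.7 CPM, a control level 1.36-fold (1.24 to 1.499) that of HCC. Plasminogen (Plg), the precursor of the clot-dissolving protease, was at 997, 706, 654 and 295 CPM, and its inhibitor Serpinf2 at 382, 352, 309 and 167 CPM. Tissue plasminogen activator (Plat) went the other way. It had 1 UMI among 2404 control cells, then 10 and 9 in the low-AFP and high-AFP libraries, and 87 in HCC, or 36.7 CPM in HCC. Those 87 UMIs lay in 11 of 396 cells, 63 of them in 1 cell, and the HCC level was 10.5 CPM without that cell.

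Counted together with a 2-fold rule (at least 10 CPM in 1 of the libraries and a log2 ratio of CPM + 10 of at least 1), none of 36 measured genes differed between low-AFP and control hepatocyte-like cells, and none of 37 between high-AFP and control. Among all genes 1.28% and 1.85% differed. The median log2 ratio of the set was -0.15 and -0.41, beside 0.04 and 0.05 for all genes. With a mitochondrial limit of 15% these medians were 0.23 and 0.01, so the direction of the small differences rests on that filter. Between HCC and control, 26 of 40 genes were lower and 3 higher (C1qa, C1qb and Plat), where 6.35% of all genes were lower and 11.2% higher. The median of the set was -1.24 beside 0.17 for all genes, and with ratios centred on that 0.17 the counts were 28 lower and 3 higher. The 26 lower genes were over background, and of the 3 higher ones Plat was while C1qa and C1qb were not. For lower genes among the 30 with their highest control level in hepatocyte-like cells, passing was given in advance. Those 30 had control T-like levels of 2.59% to 13.5% of the hepatocyte-like level. Their passing therefore does not bear on the difference between libraries. Between HCC and high-AFP, 15 of 40 were lower and Plat higher, where 3.62% and 4.31% of all genes were. C8a led these, its high-AFP level 3.79-fold (3.31 to 4.35) that of HCC, followed by Fga with 3.18-fold (3.01 to 3.36) and C9 with 2.98-fold (2.73 to 3.26). The comparisons share the control or the HCC library and are not independent of each other.

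**Figure D3:**
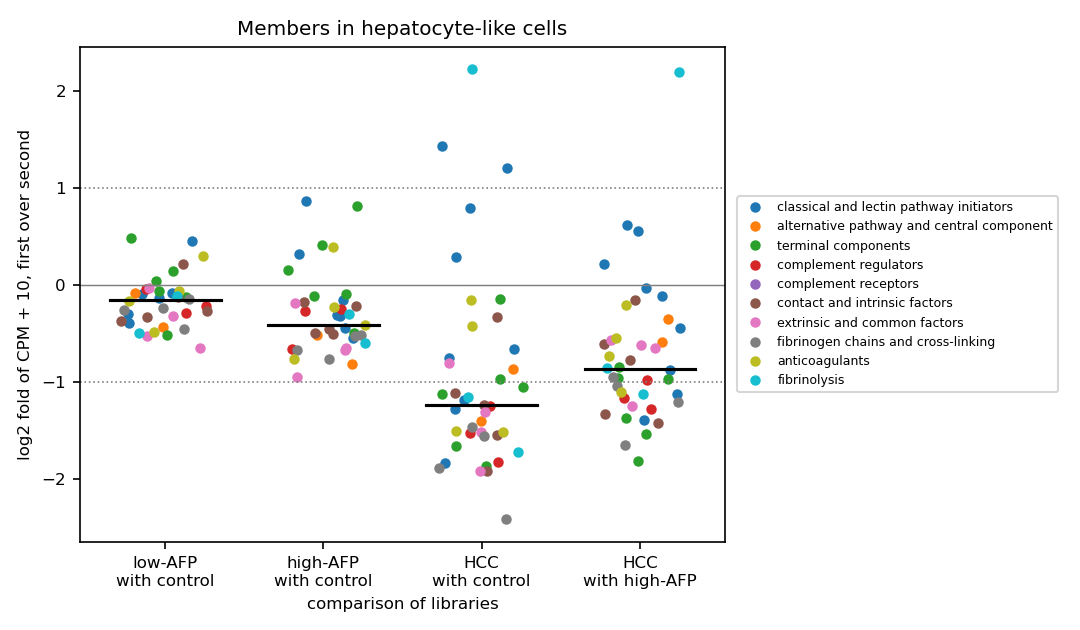
Log2 ratio of CPM + 10 in hepatocyte-like cells for each measured gene in the 4 comparisons, coloured by role, with a black bar at the median of the set and dotted lines at the 2-fold limits. All points lie between the dotted lines for low-AFP and high-AFP with control, and 26 points lie below the lower line for HCC with control, Fga lowest at -2.41.

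The cells behind these sums differed between libraries. Hepatocyte-like cells were 39.8%, 37.6% and 38.4% of the control, low-AFP and high-AFP cells and 5.29% of HCC cells, with median depths of 14312.5, 19207, 15385 and 2683 UMIs. Cluster 1 held 57.9% of them in control, cluster 0 held 42.3% and 38.9% of the low-AFP and high-AFP class, and cluster 3 held 78.0% in HCC. A further 12 cells of cluster 8 carried 26.8% of the HCC class's UMIs. The hepatocyte-like class leaves out unnamed clusters whose first or second marker score was hepatocyte. In HCC these included cluster 24 with 353 cells, cluster 25 with 286 and cluster 39 with 65, beside 396 hepatocyte-like cells. The HCC levels above therefore do not cover them. The 16 hepatocyte markers summed to 138139, 113813, 91946 and 60688 CPM, and the 11 T cell markers to 2.86, 4.38, 6.50 and 50.2 CPM. The part of these differences in the results was not tested.

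Cluster 3, led by Gnmt, Pecr and Fbp1, had low levels of many of these genes. In control it was lower than cluster 1 for 23 of 36 genes, where 15.5% of all genes were lower, among them Fga and C3. Within cluster 3, Fga was at 522, 342, 130.00 and 132 CPM, Fgb at 2337, 1603, 602 and 740.1 CPM and C3 at 915, 509.7, 258 and 159.8 CPM, so high-AFP and HCC were both far below control. Between HCC and control 24 of 37 genes were lower within it and 3 higher, where 4.52% of all genes were lower and 6.85% higher. Between high-AFP and control 21 of 35 were lower, where 3.35% of all genes were. Between HCC and high-AFP none was lower and 2 of 34 were higher, where 0.286% and 1.46% of all genes were, with a median log2 ratio of 0.00. C9 did not share the pattern, at 201, 223, 247 and 231 CPM in cluster 3. Restricted to clusters with at least 20 cells in both libraries, the count between HCC and high-AFP was 2 genes in place of 16, with a median of 0.03. With each cell weighted equally it was 31.

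Clusters 0, 1 and 8 held too few HCC cells to compare. There, Fgb was at 3959, 3888 and 3156 CPM in cluster 0, 4210.1, 4462 and 3298 CPM in cluster 1 and 2513, 2562 and 2194 CPM in cluster 8 for control, low-AFP and high-AFP. C9 in cluster 1 was at 528, 672 and 911 CPM and F2 at 1259, 896 and 655 CPM, so the terminal component and prothrombin ran in opposite order. Cluster 20, led by Chka, Mlxipl and Neat1, had more Hc, at 532, 738 and 802 CPM, and more C4b, at 835, 1097 and 1179 CPM, than clusters 0, 1, 3 and 8 of the same libraries. The set as a whole was not higher there. By the 2-fold rule with cluster 1, 1 of 37, 3 of 39 and 5 of 41 genes were higher in cluster 20, and 8, 9 and 6 lower. Among all genes 28.1%, 33.4% and 34% were higher and 9.33%, 10.9% and 7.9% lower. Cluster 32, led by cell cycle genes such as Cdc20 and Birc5, was present in both high-AFP and HCC. In it Fgb was at 1699 and 1683 CPM, and Fga at 1182 and 566 CPM.

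Clusters that could not be named from markers carried some of the highest and lowest levels. Cluster 39 (65 HCC cells, led by Tspan8, Cyp2a4 and Igfbp1) had Fgb at 6917, Fga at 1662 and C3 at 2342 CPM, and was higher than cluster 3 of the same library for 28 of 40 genes, where 28.1% of all genes were higher. Cluster 25 (286 HCC cells, led by Akr1c18 and Afp) had Fgb at 2965 and Fga at 484 CPM, and 13 of 38 genes were higher than in cluster 3, where 5.81% of all genes were. In cluster 45 (21 HCC cells) Plat reached 473 CPM and F5 636 CPM, with Fga at 475 CPM. Cluster 24 (353 HCC cells, led by Oat and Glul) was at the low end, with Fgb at 211 and Fga at 46.5 CPM. In high-AFP, cluster 21 (308 cells, led by Gsta1 and Cbr3) was lower than cluster 0 for 32 of 37 genes, where 17.1% of all genes were, with Fgb at 428 CPM.

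The balance of fibrinogen chains also differed between these clusters. The level of Fga was 132 CPM beside 740.1 CPM for Fgb in cluster 3, and 1662 beside 6917 CPM in cluster 39. In control cluster 1 the pair stood at 3247 and 4210.1 CPM.

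Genes of the same pathways outside the set were measured from a list of 67 further genes. In hepatocyte-like cells 1 was higher and 1 lower of 33 measured in low-AFP, where 0.803% of all genes were higher and 0.473% lower. For high-AFP the counts were 2 and 1 of 33, where 1.25% and 0.596% of all genes were. For HCC they were 3 and 11 of 36, each with control, where 11.2% and 6.35% of all genes were, so the share of higher genes was below that of all genes. The 11 lower in HCC included histidine-rich glycoprotein (Hrg), at 624 CPM in control and 178 CPM in HCC. Factor D (Cfd), the protease that cleaves factor B, was higher in HCC at 20.7 CPM and 0.2502 in control. Serpine2, an inhibitor of thrombin and plasminogen activators, stood at 22.3 CPM in control against 1.87 and 3.86 CPM in the AFP libraries.

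Macrophage-like cells carried high levels of the C1q chains in every library. C1qa was at 4508, 4707, 5160.3 and 4915 CPM, C1qb at 3533, 4937, 5473 and 5675 CPM and C1qc at 3322, 3774, 4014 and 3816 CPM. C1qa and C1qc differed little between libraries while C1qb was lowest in control, so that C1qb over C1qa UMIs ran 0.784, 1.05, 1.06 and 1.15 and C1qc over C1qa 0.737, 0.802, 0.778 and 0.776. The interval of the first ratio was 0.761 to 0.807 in control and 1.13 to 1.18 in HCC. C1q is a bundle of trimers that each hold 1 A, 1 B and 1 C chain, and the 3 genes lie together on chromosome 4. The promoters of the 2 chains in the RefSeq table are shown for comparison with each other, C1qb at chr4:136886201-136886450 on the minus strand and C1qc at chr4:136892915-136893164 on the minus strand, with capitals for GAGGAA on either strand.
C1qb: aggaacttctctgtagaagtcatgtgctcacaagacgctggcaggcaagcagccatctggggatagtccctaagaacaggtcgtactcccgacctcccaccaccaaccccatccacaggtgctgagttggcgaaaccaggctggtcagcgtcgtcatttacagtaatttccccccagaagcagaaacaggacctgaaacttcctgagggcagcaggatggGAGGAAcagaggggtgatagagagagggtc
C1qc: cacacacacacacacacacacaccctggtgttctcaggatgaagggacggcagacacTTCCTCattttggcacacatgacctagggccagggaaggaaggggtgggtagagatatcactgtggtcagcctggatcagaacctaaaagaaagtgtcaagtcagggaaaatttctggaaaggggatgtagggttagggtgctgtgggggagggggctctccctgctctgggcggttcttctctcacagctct
The C1qb match lay 30 bases before the start and the C1qc match, on the opposite strand, 193 bases before it.

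C6, a terminal pore component, was far higher in macrophage-like cells of control than of the other libraries. Its level was 464, 105, 96.6 and 59.6 CPM, a control level 4.41-fold (4.001 to 4.86) that of low-AFP, 4.81-fold (4.398 to 5.26) that of high-AFP and 7.79-fold (6.62 to 9.21) that of HCC. Control lay apart from the other 3 libraries, whose levels were 105 CPM or less. Cells with a C6 UMI, after thinning each to 1000 UMIs, made up 41.4% (36.5 to 46.4) of the control class. The 3 other libraries, in their usual order, had shares of 9.95% (7.64 to 12.7), 8.97% (7.24 to 10.96) and 4.17% (1.82 to 8.04), leaving out 33, 4, 12 and 0 shallower cells. Unthinned, the shares were 59.02%, 23.3%, 23.5% and 17.2%, beside 1.42%, 2.02%, 2.66% and 0.200% of T-like cells, at median depths of 4686, 10817, 9633 and 15387.5 UMIs for macrophage-like and 4035, 4216, 3477 and 4232 UMIs for T-like cells. C6 in endothelial-like cells was at 5.77, 5.47 and 4.06 CPM in the first 3 libraries.

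Macrophage-like cells fell mainly into cluster 10, led by Clec4f, Vsig4 and Cd5l, genes known from resident Kupffer cells, and cluster 9, led by Mmp12, Mmp13 and Gpnmb. Cluster 10 held 75.4% of the class in control, and cluster 9 held 50.8%, 52.7% and 51.0% in low-AFP, high-AFP and HCC. C6 was mostly in cluster 10, and within it control was again highest, at 731, 225, 214 and 137 CPM, beside 30.5, 30.6, 20.1 and 15.99 CPM in cluster 9. C1qb in cluster 10 was at 3139, 5116, 5556 and 6473 CPM, and in cluster 9 at 4696, 5309, 5728 and 5621 CPM. Both C6 and C1qb differed between libraries inside 1 cluster as well as in the class. The macrophage-like class leaves out unnamed cluster 17, whose leading genes include C1qa, C1qb and C1qc. That cluster held 105, 98, 177 and 225 cells, the last beside 192 macrophage-like cells in HCC. Its C1qb level in control was 3853 CPM.

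C2 in macrophage-like cells was at 35.2, 2.17, 2.39 and 3.14 CPM, from 80, 14, 23 and 9 UMIs, a control level 16.2-fold (9.13 to 30.998) that of low-AFP and 11.2-fold (5.63 to 25.4) that of HCC. Control was also highest within cluster 10, at 53.4, 3.16, 2.67 and 7.42 CPM there. C4b was at 113, 44.4, 65.1 and 42.5 CPM. Its libraries ordered differently by cluster, with 169, 74.4, 117 and 45.4 CPM in cluster 10 and 17.7, 23.6, 33.5 and 46.4 CPM in cluster 9. Properdin (Cfp), which stabilises the alternative convertase, was highest in HCC at 568, 527, 576 and 817 CPM. It was highest in HCC in both clusters, with 778, 868, 948 and 1245 CPM in cluster 10 and 195, 327, 329.5 and 499 CPM in cluster 9.

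The anaphylatoxin receptors were lowest in HCC. C3ar1 was at 297, 250.4, 216 and 143 CPM, a control level 2.08-fold (1.83 to 2.35) that of HCC, and C5ar1 at 125, 126, 95.3 and 44.6 CPM, 2.81-fold (2.27 to 3.49). Both were higher in cluster 9 than in cluster 10 in every library. In cluster 9 C5ar1 was at 193, 188, 135 and 69.3 CPM and in cluster 10 at 101, 61.8, 59.5 and 21.3 CPM. F8 was at 12.3 CPM in control and 0.697 CPM in HCC, from 28 and 2 UMIs, a ratio of 17.7 with an interval of 4.46 to 153. F8 had its highest control level in endothelial-like cells, and the part of endothelial RNA here was not tested.

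**Figure D4:**
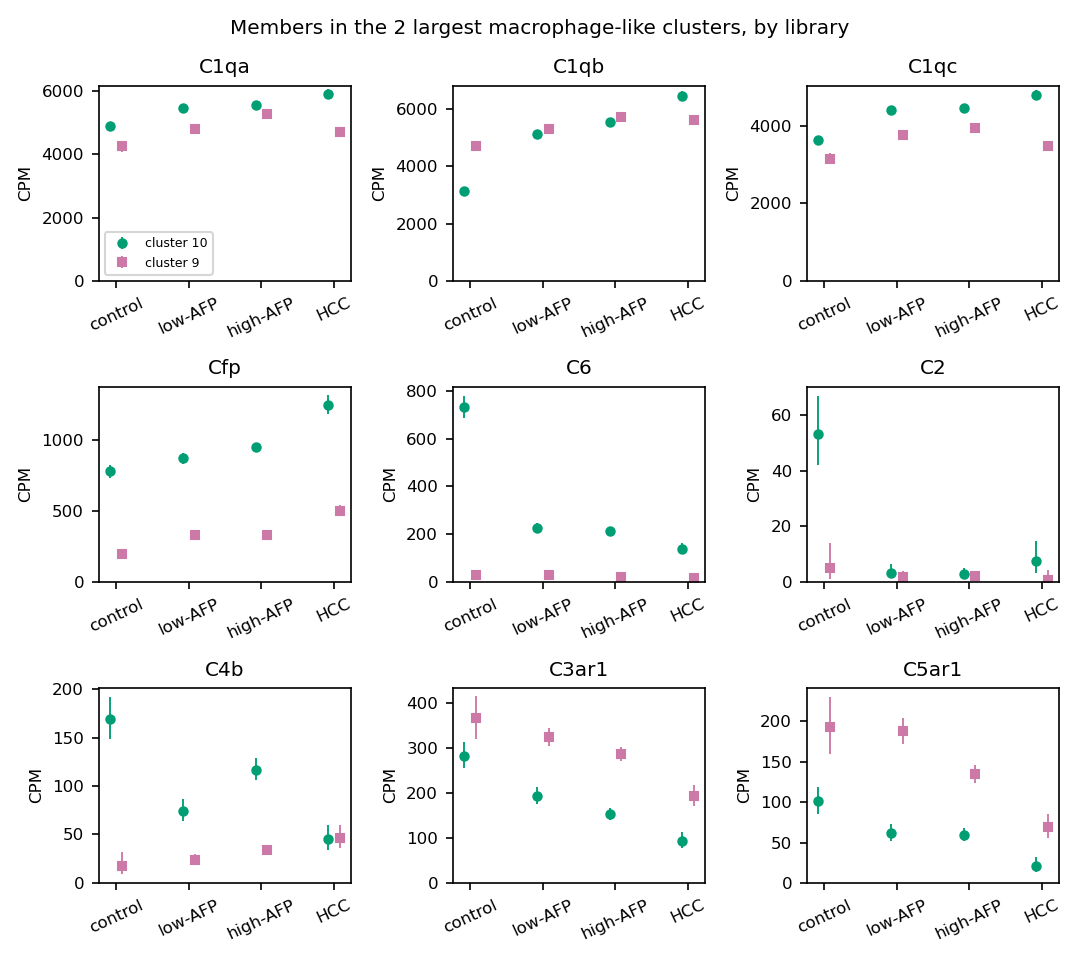
Levels (CPM, linear axes from 0) of 9 genes in macrophage-like clusters 10 (circles) and 9 (squares) by library, with 95% exact Poisson intervals. C6 and C2 in cluster 10 are highest in control, C1qb in cluster 10 is lowest in control, and C3ar1 and C5ar1 are lower in HCC in both clusters.

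By the 2-fold rule, 3 of 37 genes were lower in low-AFP than in control macrophage-like cells (C2, C4b and C6), where 1.07% of all genes were. In high-AFP 6 of 36 were lower, where 1.39% of all genes were, but only C2 and C6 were over background. In HCC 19 of 36 were lower, where 4.52% of all genes were. Of these, C2, C4b, C6, C3ar1, C5ar1 and F8 were over background, and the other 13 were hepatocyte genes under 2 times their T-like level in control. Between HCC and high-AFP 5 of 26 were lower, where 1.25% of all genes were, and none of the 5 was over background. Hepatocyte markers in macrophage-like cells summed to 5855, 3134, 3098 and 679.6 CPM, and endothelial markers to 1129, 511, 522 and 383 CPM. In control T-like cells endothelial markers summed to 80.7 CPM. The T-like level is therefore no gauge of endothelial RNA for F8, which was highest in endothelial-like cells of control. The part of either marker list in the results was not tested. The median log2 ratio of all genes was -0.09, -0.16 and -0.16 for low-AFP, high-AFP and HCC with control, and with ratios centred on these the lower genes numbered 3, 3 and 16. With a pseudocount of 1 CPM the counts were 8, 12 and 27 for low-AFP, high-AFP and HCC with control.

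Of the wider pathway genes in macrophage-like cells, Vsig4, a receptor for C3b, was at 1773, 808, 229 and 131 CPM, and Fcna, a lectin pathway ficolin, at 537, 253, 383 and 382 CPM. Vsig4 and Fcna also lead cluster 10, which held 75.4% of the class in control and 36.3%, 37.9% and 35.9% in low-AFP, high-AFP and HCC. The part of these shares in their levels was not tested. Cd55, which breaks up C3 convertases, was at 47.98, 10.1, 11.1 and 10.5 CPM. The urokinase receptor Plaur was at 10.1, 23.9, 21.9 and 35.2 CPM. Of 34 such genes measured, none was higher and 3 lower in low-AFP than in control, where 1.07% of all genes were lower. In HCC 3 were higher and 7 lower of 34, where 0.934% of all genes were higher and 4.52% lower.

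In endothelial-like cells, the known source of factor VIII, F8 was at 918, 858, 852 and 471 CPM. The first 3 libraries lay close together and HCC was lower, the control level 1.95-fold (1.76 to 2.16) that of HCC. Protein S (Pros1), the cofactor of activated protein C, was at 417, 405, 408 and 204 CPM, a control level 2.04-fold (1.75 to 2.402) that of HCC. Tissue factor pathway inhibitor (Tfpi) was highest in high-AFP, at 315, 383, 428 and 175 CPM, and its high-AFP level was 2.44-fold (2.06 to 2.91) that of HCC. Thrombomodulin (Thbd), which turns thrombin into an activator of protein C, was not lower in HCC than in control, at 197, 196, 269 and 239 CPM. Masp1 was at 236, 218, 206 and 164 CPM. C2 was at 34.96, 30.6, 39.1 and 4.83 CPM, from 224, 123, 231 and 4 UMIs, a control level 7.23-fold (2.79 to 26.8) that of HCC. Plat was at 4.53, 5.97, 5.93 and 31.4 CPM, its HCC level 6.94-fold (3.93 to 12.2) that of control, from 26 UMIs in 13 of 99 cells.

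**Figure D5:**
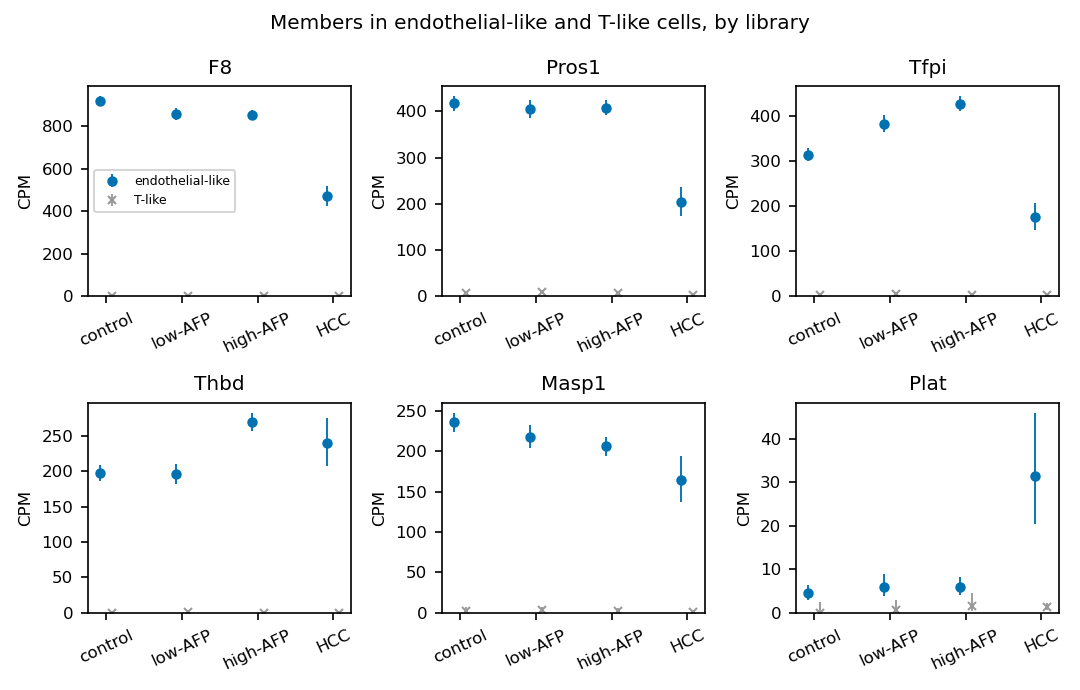
Levels (CPM, linear axes from 0) of 6 genes in endothelial-like cells (circles) and T-like cells (crosses) by library, with 95% exact Poisson intervals. F8 and Pros1 lie close together in the first 3 libraries and lower in HCC, Thbd is not lower in HCC than in control, and Plat is highest in HCC, while T-like levels lie near 0.

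By the 2-fold rule none of 35 genes differed between low-AFP and control endothelial-like cells, where 1.07% of all genes did. In high-AFP, C1qa, C1qb and C1qc were higher and Fga lower of 35, where 1.02% of all genes were higher and 0.468% lower, and none of the 4 was over background. The C1q genes there stood at 54.02, 70.96 and 39.6 CPM beside 50.3, 75.2 and 38.1 CPM in T-like cells. In HCC 22 of 36 were lower and Plat higher than in control, where 8.45% of all genes were lower and 5.65% higher, but among the 22 only C2 was over background. Centred on the all-gene median of -0.11, the counts were 18 lower and Plat higher. Between HCC and high-AFP 13 of 30 were lower and Plat higher, where 5.95% of all genes were lower and 3.79% higher, and of these C2, Tfpi and Plat were over background. Hepatocyte markers in endothelial-like cells summed to 10272, 6428, 6248 and 1027 CPM, and the class's own markers to 24634, 20606, 19534 and 12725 CPM. Their part was not tested.

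The endothelial clusters set the class levels to different degrees. Cluster 2, led by Cyp26b1, Wnt2 and Plpp1, held 69.9% of the class in control, and cluster 6, led by Esm1, Lyve1 and Pcdh17, held 41.9% and 47.8% in low-AFP and high-AFP. Cluster 27, led by Rspo3 and Vwf, held 72.7% of the 99 HCC cells. Within cluster 27, F8 was at 525, 555, 546 and 403 CPM, Pros1 at 234, 251, 235 and 184 CPM and Tfpi at 122, 161, 154 and 126 CPM, from 36, 43, 90 and 72 cells. These ranges were narrower than those of the class. Thbd in cluster 27 was at 956, 448, 691 and 267 CPM, lowest in HCC. In cluster 2 Thbd was at 187, 410.4 and 579 CPM in the first 3 libraries, while F8 there was at 993, 992 and 1019 CPM. Plat in cluster 27 was at 37.5, 5.64, 19.3 and 31.1 CPM. There HCC was above both AFP libraries, as in the class, but not above control, where the cluster has 36 cells. C2 in cluster 27 was at 14.1, 11.3, 8.77 and 1.41 CPM, from 3, 4, 5 and 1 UMIs, too few to tell the libraries apart, beside 40.5, 41.9 and 52.5 CPM in cluster 2 of the first 3 libraries.

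Wider pathway genes of endothelial-like cells included Vwf, the carrier of factor VIII, at 70.4, 246, 189 and 769.9 CPM, and the endothelial protein C receptor Procr at 7.33, 12.7, 18.6 and 62.8 CPM. Thrombospondin 1 (Thbs1) was at 0.312, 2.74, 2.201 and 89.4 CPM. The second C5a receptor, C5ar2, was at 261, 224, 205 and 35.05 CPM, and Cd55 at 989, 767, 814 and 346 CPM. Vwf also leads cluster 27, the cluster that holds most HCC cells of the class. Of the wider genes, 1 was higher and 1 lower of 41 measured in low-AFP, where 0.705% of all genes were higher and 0.369% lower. The counts were 1 and 2 of 39 for high-AFP, where 1.02% and 0.468% of all genes were, and 7 and 14 of 43 for HCC, where 5.65% and 8.45% were, each with control.

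Other classes supplied a few members. F13a1 in monocyte-like cells was at 415, 299.8, 222 and 257 CPM, from 86, 317, 419 and 1183 cells, so control was highest. F10 was highest in HCC there, at 131, 196, 182 and 249 CPM, and monocyte-like cells passed hepatocyte-like cells as the class with the highest F10 only in the HCC library. By the 2-fold rule none of 33 members differed in low-AFP and none of 34 in high-AFP from control monocyte-like cells, where 1.15% and 1.73% of all genes did. In HCC 15 of 32 were lower than in control, where 3.87% of all genes were, and none of the 15 was over background. Between HCC and high-AFP 16 of 32 were lower, where 3.12% of all genes were, and of these C1qa, C1qb, C1qc and C3ar1 were over background.

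C5ar1 in neutrophil-like cells was at 660.4, 606, 647 and 650.4 CPM, from 45, 57, 59 and 228 cells, a narrow range. Tissue factor (F3), the trigger of clotting after injury, was found in cholangiocyte-like cells at 59.9, 158, 189 and 74.5 CPM, from 55, 69, 57 and 43 cells. Proc in the same cells was at 330.4, 332, 259 and 276 CPM. The 112 mesenchymal-like cells of control held Masp1 at 1055 CPM and Serping1 at 653 CPM, and the other libraries had 13, 17 and 14 such cells.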

How the data were processed

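RNA of single liver cells was captured with a 10x 3' kit (version 2 per the labels), and each library's UMI counts per gene and barcode were deposited by the authors as a matrix, made with Cell Ranger 3.0.2 per the file headers. The submitters' processing notes also name R 3.0, Seurat 3 and mm9, and the annotation release is not given in the sources used here. Groups come from the sample titles, 1 library each, with 71957655, 80505127, 97393862 and 65326793 UMIs for control, low-AFP, high-AFP and HCC. Barcodes passed with 300 or more genes, 500 or more UMIs and no more than 30% of UMIs from mitochondrial genes. Scrublet's automatic threshold marked 0.189%, 0.149%, 0.0590% and 0.0% of them, too few to use, so the highest scores at 0.8% per 1000 cells were removed (323, 230, 575 and 513 barcodes).

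The rest were clustered with scanpy 1.11.5 and leidenalg 0.10.2 (2000 variable genes without the 48 genes and the wider pathway list, counts scaled to 10000, 30 components, 15 neighbours, resolution 1) and named by marker lists. A cluster with none of its class's markers among its top 10 genes and a marker score under 1 stayed unnamed, a rule set after seeing the data. Other reasons were under 3 detected markers, a score under 0.5 or more top genes of another class. Low depth with no marker among the top genes was a further reason. Summed counts were scaled to CPM of nuclear-encoded UMIs, and ratios were taken on the log2(CPM + 10) scale. With 1 library per group no test was run. Classes of at least 50 cells in both libraries were compared, and a gene counted as different with at least 10 CPM in 1 of them and a 2-fold ratio. Genes so called and at least 2 times their T-like level were named with values, beside the highest of each role in a class and up to 4 wider pathway genes per class. Exceptions chosen after seeing the values are the genes followed through clusters and the further wider pathway genes. The members and lists were chosen with earlier results of these data known. The summing and ratio steps were tested on simulated data. Alternatives covered filters, doublets, resolution, clustering genes, pseudocount, cell weights, centring and shared clusters, and adding unnamed clusters was chosen after seeing the data. Intervals used scipy 1.17.1. RefSeq promoters (GRCm38.p6) matched 36 of 48 genes, without Cfb, Thbd, C2, Plat, Plg, C1qa, Cfi, C4b, Masp1, Kng1, Serping1 and Proc. Some wider pathway genes are not reported here.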

Additional observations from a re-analysis of the deposited data

How the results depend on the processing

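No paired analysis was possible because each group is 1 library and all carry the same number. Among classes of at least 50 cells, the one holding a gene's highest control level was the same for 48 of 48 genes under each alternative run. Counts of genes past 2-fold that moved over 1.5 times are as follows. With a 15% mitochondrial limit, hepatocyte-like counts with control were 1 for low-AFP and 2 for high-AFP, in place of none. With each cell weighted equally they were 2 for high-AFP with control and 31 for HCC with high-AFP, and macrophage-like low-AFP with control had 5 in place of 3. A pseudocount of 1 CPM gave 1 (hepatocyte-like, high-AFP), 8 and 12 (macrophage-like, low-AFP and high-AFP), 1 and 7 (endothelial-like, low-AFP and high-AFP) with control, and 10 in macrophage-like HCC with high-AFP. Centring gave 3 in place of 6 for macrophage-like high-AFP. With doublets kept, macrophage-like HCC with high-AFP had 9 in place of 5, and endothelial-like low-AFP 1. Clustering with the members gave 8 for the former and 5 for macrophage-like low-AFP. In clusters with at least 20 cells in both libraries, hepatocyte-like HCC with high-AFP gave 2 in place of 16, and log2 ratios turned positive for Cfi (0.22), Fgg (0.0496), Serpind1 (0.0024) and Plg (0.056), as did C9 for HCC with control (0.20). That alternative gave no value for endothelial-like HCC with control. Within the limit of 1.5 times, adding the unnamed clusters with hepatocyte markers first or second gave 22 in place of 29 for hepatocyte-like HCC with control. Of the ratios of named genes, 419 stayed within their counting interval, 277 moved beyond it and 5 changed sign. The cause of these differences was not tested. Depth limits C2 and Plat in HCC endothelial-like cells, which rest on 4 and 26 UMIs.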

Other observations

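Lectin pathway genes outside the 48 differed between libraries in non-hepatocyte classes. The collectins Colec10 and Colec11, soluble lectins that bind sugars and recruit MASP proteases, were measured in endothelial-like cells. Colec10 was at 34.96, 10.2 and 2.54 CPM and Colec11 at 23.9, 11.2 and 2.20 CPM in control, low-AFP and high-AFP. The control level of Colec10 was 13.8-fold (95% interval 8.17 to 25.001) that of high-AFP. Colec11 was a leading gene of mesenchymal-like clusters 36 and 40, and Colec10 of cluster 40. Mesenchymal-like cells numbered 112, 13 and 17 in control, low-AFP and high-AFP. The part of mesenchymal RNA in the endothelial-like levels was not tested. In monocyte-like cells the ficolin Fcna was at 138 CPM in control and 2.79, 10.96 and 2.75 CPM in low-AFP, high-AFP and HCC, from 86 control cells whose hepatocyte markers summed to 7432 CPM and endothelial markers to 312 CPM, beside 617 and 50.4 CPM in HCC. Fcna is also a leading gene of macrophage-like cluster 10. Macrophage markers of the monocyte-like class differed little between libraries, with sums of 2177, 2221, 2097 and 1990 CPM in the usual order. The part of any of these marker lists in the Fcna levels was not tested. Thrombospondin 1 (Thbs1) in the same cells was at 207, 78.1, 66.4 and 109 CPM.

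Monocyte-like cells also carried C1q chains at a lower level than macrophage-like cells. C1qa was at 354, 344, 654 and 221 CPM there and C1qc at 299, 297, 497 and 165 CPM, highest in high-AFP and lowest in HCC for both. In cholangiocyte-like cells C3 was at 568, 1346, 1250.5 and 2464 CPM, so HCC was highest and control lowest, while in hepatocyte-like cells control was highest and HCC lowest. Vtn was at 211, 295, 259 and 1857 CPM and Fgb at 168, 133, 136 and 988 CPM in these cells, from 55, 69, 57 and 43 cells, the last under the 50 cells required for a comparison.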
